A study of Mus musculus with 6 samples.

Results

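The nuclear genes of respiratory complex I that carry an Nduf name were followed in the hippocampus of mice with an Slc1a2 variant. The members are all protein-coding genes of the deposited table whose symbol starts with Nduf, 46 of 54532 genes, a rule that reads the symbol and the biotype and no measured value. Hippocampal RNA of 3 TG mice and 3 WT mice was sequenced, 1 library per mouse, and each library is named by its group and the number in its title, from WT1 up to TG3. TG mice carried the G82R and L85P changes of GLT-1, the main glutamate transporter of astrocytes, which Slc1a2 encodes. Both changes were placed in exon 3 with CRISPR/Cas9 in C57BL/6N eggs, and the controls were WT littermates. Age, the sex of each sequenced mouse and the zygosity of the TG mice were not given in the sources used here. The titles number the mice without naming a litter or a batch, so the p-values below measure only the spread between these libraries.

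Complex I is the NADH dehydrogenase of the inner mitochondrial membrane. Its matrix arm passes electrons from NADH through a flavin and a chain of iron-sulfur clusters to ubiquinone, and its membrane arm pumps protons. The catalytic core is divided between the nuclear genome and the mt-Nd genes of mitochondrial DNA, the many accessory subunits are all nuclear, and assembly factors build the complex without remaining in it. Neurons draw most of their ATP from this chain, and loss of single Nduf genes causes Leigh syndrome and related encephalopathies.

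By role, the 46 genes comprised 7 core subunits, 9 accessory subunits of the matrix arm, 20 accessory subunits of the membrane arm, 8 assembly factors (Ndufaf1 to Ndufaf8) and Ndufa4 with its paralog Ndufa4l2. Ndufa4 keeps its complex I name although its protein is now placed in complex IV. Of 21 listed accessory subunits of the membrane arm, 20 were among the 46 genes. The table also held 5 Nduf-named genes of other biotypes, which were not counted. They were Ndufb1-ps, labelled there as a long non-coding RNA and measured at 13.9 to 21.2 FPKM, and 4 processed pseudogenes. The 46 genes lay on 17 chromosomes, with Ndufa1 and Ndufb11 on the X chromosome.

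The promoters were read first, because genes of the respiratory chain are known to share binding sites for a few factors. RefSeq (GRCm38.p6) held windows of 250 bases upstream of the transcription start for 40 of the 46 genes. The windows were searched on both strands for letters of NRF1 (GCGC, any 2 bases, GCGC), of ETS factors such as GABP (CCGGAAG), of YY1 (AAGATGG) and of Sp1 (GGGCGG). The NRF1 letters were present in 9 of the 40 genes (22.5%), compared with 8.01% of 16497 protein-coding genes and 4.98% of all 32851 windows of this length. These 9 were Ndufa5, Ndufa8, Ndufa11, Ndufab1, Ndufaf4, Ndufb4, Ndufs5, Ndufs6 and Ndufv2. The ETS letters were present in 5 genes (12.5%, compared with 10.5% of protein-coding genes), namely Ndufaf1, Ndufaf8, Ndufb6, Ndufb7 and Ndufs3. The YY1 letters were in none of the 40 windows (4.80% of protein-coding genes), and the Sp1 letters were in 19 (47.5%, and 47.5% of protein-coding genes). A match describes letters only, and a window without one says nothing about the factor.

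Windows of 4 genes are shown 5′ to 3′ on the strand of the gene, with the NRF1 or ETS letters on either strand in capitals. Ndufb4 is shown for its 3 NRF1 matches, Ndufa5 for the most negative fold change of the 46, and Ndufb6 and Ndufaf1 as ETS genes whose TG values all lay below the WT values. In these windows the Sp1 letters are left in lower case. Ndufa5 has a pair of listed starts, and the window of the upstream start is given.
Ndufb4, chr16:37654369-37654618, minus strand: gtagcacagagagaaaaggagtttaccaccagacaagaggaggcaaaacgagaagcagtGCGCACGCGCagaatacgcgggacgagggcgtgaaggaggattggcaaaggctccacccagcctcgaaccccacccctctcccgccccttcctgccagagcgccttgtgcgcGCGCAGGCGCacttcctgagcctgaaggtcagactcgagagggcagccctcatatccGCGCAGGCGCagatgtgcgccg
Ndufa5, chr6:24527691-24527940, minus strand: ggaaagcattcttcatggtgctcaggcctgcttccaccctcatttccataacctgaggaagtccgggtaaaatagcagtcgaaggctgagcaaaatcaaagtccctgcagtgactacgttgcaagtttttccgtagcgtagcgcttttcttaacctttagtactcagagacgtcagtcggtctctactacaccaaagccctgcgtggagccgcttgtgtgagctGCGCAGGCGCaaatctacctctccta
Ndufb6, chr4:40279422-40279671, minus strand: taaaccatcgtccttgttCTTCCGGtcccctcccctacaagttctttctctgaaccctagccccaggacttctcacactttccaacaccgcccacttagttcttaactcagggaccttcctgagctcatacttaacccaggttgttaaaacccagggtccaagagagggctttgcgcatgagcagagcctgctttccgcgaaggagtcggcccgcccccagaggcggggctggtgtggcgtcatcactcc
Ndufaf1, chr2:119662835-119663084, minus strand: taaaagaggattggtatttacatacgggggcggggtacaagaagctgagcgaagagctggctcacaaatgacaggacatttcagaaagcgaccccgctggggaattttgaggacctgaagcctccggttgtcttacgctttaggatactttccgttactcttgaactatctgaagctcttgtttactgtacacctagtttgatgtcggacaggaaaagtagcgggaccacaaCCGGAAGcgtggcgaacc
The last bases of the Ndufa5 window hold 1 NRF1 match close to the start. In Ndufaf1 the ETS letters lie within the final bases before the start, whereas in Ndufb6 they lie at the far end of the window, on the opposite strand.

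Levels are given as FPKM, the read count of a gene scaled to its length and to the library. The reads on genes numbered between 16081281 and 18751057 per library, and 3 reads on a gene of 1 kb would give an FPKM of 0.160 to 0.190. Each Nduf gene had between 43 and 4370 reads per library, so none was close to that limit. Slc1a2, whose variant defines the groups, measured 202, 199.6 and 177 FPKM in WT mice (replicates in order, here and below) and 222, 207 and 217 in TG mice, so its log2 fold change was 0.16, which did not pass (limma, unadjusted p = 0.102, adjusted p = 0.789), and FPKM hold no bases that could show the variant. Libraries differed in markers of other cell types. The summed FPKM of 10 choroid plexus markers was between 81.2 and 109 in the WT libraries and was 1332, 4166 and 90.9 in TG1 to TG3, and 10 oligodendrocyte markers had the lowest sum in TG1 (563, compared with 731 to 909 in WT).

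In mean FPKM, all 46 genes were at 1 or more and 39 were at 10 or more. The most abundant was Ndufa4 (mean FPKM of 119) and the least abundant was its paralog Ndufa4l2 (2.68). FPKM were computed on the length of all exons of a gene, which for some members is far longer than a coding transcript. Ndufb2 was given 5628 bases where its coding transcripts have 455 to 4371, Ndufb7 was given 4522 where its transcript has 623, and Ndufab1 was given 6883 where its transcripts have 1416 to 3479. The low FPKM of these 3 subunits are therefore low per annotated exon length and cannot be ranked against genes such as Ndufa1, whose 419 bases are the length of its transcript. The same length was used in every library.

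The mean of every Nduf gene was slightly lower in TG than in WT mice, and no gene passed the adjusted test. The log2 fold change (TG minus WT, on log2(FPKM + 0.1)) was negative for 46 of 46 genes, compared with 50.4% of the 20952 genes tested. Its median was -0.17, which is a change of -11.3% in FPKM, and it ranged from -0.35 in Ndufa5 to -0.02 in Ndufa4l2, whereas the median over all genes tested was 0.00. Of the 4661 protein-coding genes whose mean FPKM reached 10, 2668 were negative, with a median of -0.02. The other genes of that level had medians of -0.18 under 1 kb, -0.12 at 1 to 2 kb and -0.003 at 2 kb and longer. The Nduf genes of these lengths, taken at any level, had medians of -0.20, -0.19 and -0.16, and the difference was not tested. In bulk tissue, fewer cells of a type and less RNA per cell cannot be told apart. The 46 genes were measured in the same 6 libraries and are not replicates of each other.

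By limma, 0 of the 46 genes had an adjusted p under 0.05 (the smallest was 0.786), where 0.00955% of all genes tested, 2 genes, had one. At an unadjusted p under 0.05, 2 genes were lower in TG mice (4.35% of the members, compared with 2.78% of all genes tested), namely Ndufb6 and Ndufa9, and 0 were higher (3.13% of all genes tested). With voom on the reads recovered from the FPKM, the same threshold gave 3 lower, 0 higher and 0 adjusted. All 3 TG libraries lay below all 3 WT libraries in 6 genes (13.0%), compared with 5.71% of all genes tested, and above them in 0 genes, compared with 6.35%. The number lower at an unadjusted p was 0 without WT3 or without TG1, 5 without WT2 and 1 without any other library, and the number with separated groups was 22 without WT2 and 10 without TG3. The shares of all genes tested were not counted with a library left out, where groups separate more readily, so the shares above do not apply to these counts. Single genes past a threshold were therefore few and depended on the libraries, and the pattern lay in the shared sign.

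Single libraries stood out across the whole family. WT3 was the highest of the 6 libraries in 45 genes (97.8%), compared with 25.1% of all genes tested and 45.8% of the 4661 protein-coding genes whose mean FPKM reached 10. TG1 was the lowest library in 33 genes (71.7%), compared with 19.6% of all genes tested and 21.8% of those 4661 genes. The exception to WT3 was Ndufa4l2. Expressed as the log2 difference of each gene from its WT mean, the median over the 46 genes was -0.07, -0.14 and 0.21 in the WT mice and -0.29, -0.12 and -0.11 in the TG mice. TG2 and TG3 thus lay between WT1 and WT2, and the distance between WT2 and WT3 was larger than the difference between the groups. The summed FPKM of the 46 genes showed the same order, with 1957, 1829 and 2394 in WT mice and 1642, 1884 and 1908 in TG mice.

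**Figure D1:**
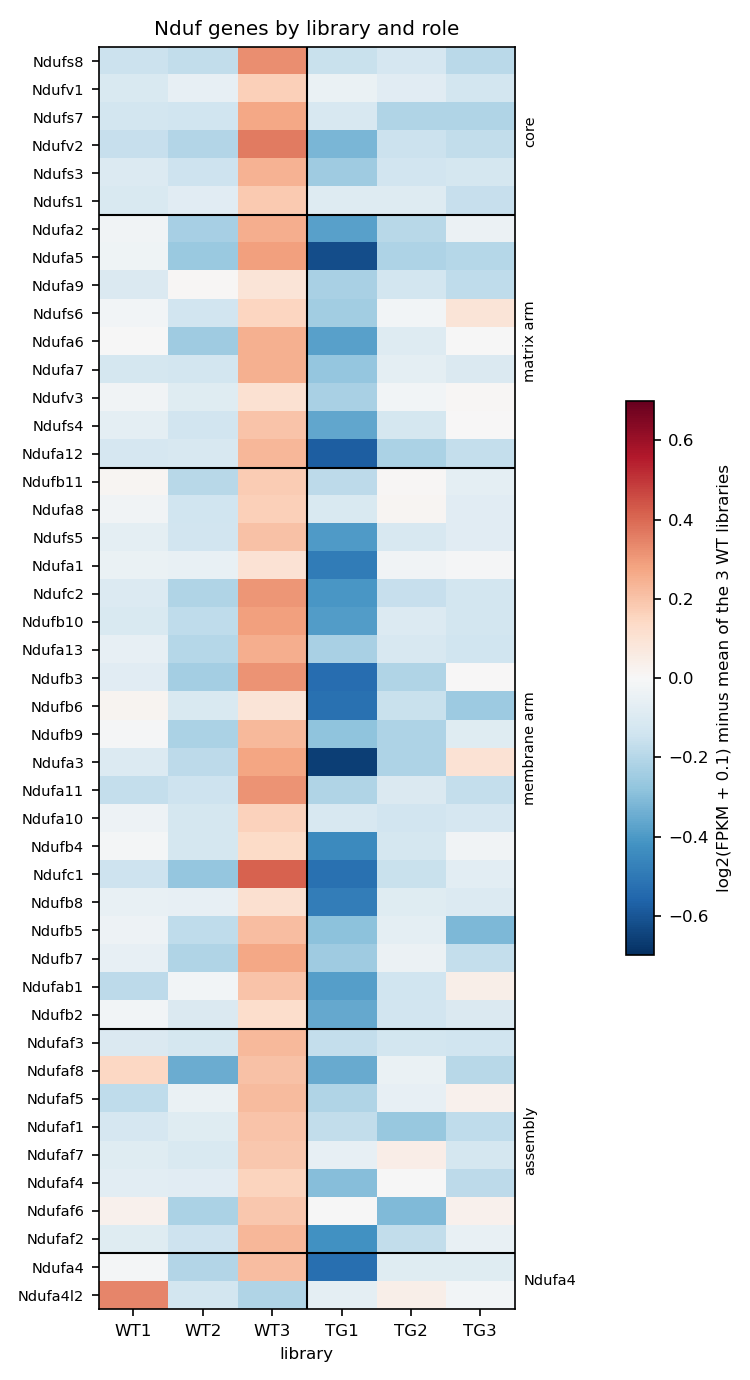
Heat map of 45 of the Nduf genes (rows, grouped by role and ordered by mean FPKM within a role) in the 6 libraries (columns), where the colour is log2(FPKM + 0.1) minus the mean of the 3 WT libraries for that gene. Among these 45, the WT3 column is the highest in 44 and the TG1 column is the lowest in 33, and the WT1, WT2, TG2 and TG3 columns are close to each other.

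Leaving out these libraries moved the fold changes towards 0. Without WT3 the median log2 fold change was -0.06 and 39 genes were negative, and without TG1 it was -0.11 and 44 were negative. With both left out, an alternative chosen after seeing the data, the median was 0.00 and 21 of 46 genes were negative, with 0 genes at an unadjusted p under 0.05. Of the 20952 genes tested, 10653 were negative without WT3, 10511 without TG1 and 10562 without both. Since WT3 and TG1 were picked as the highest WT and the lowest TG library over the family, leaving both out had to move the fold changes towards 0, and the values without them are a description and no test of the sign. In these 4 libraries 8 genes had both TG values below both WT values and 3, Ndufa1, Ndufa7 and Ndufv3, had them above. The same share of all genes tested was not counted for these 4 libraries. With so few libraries the groups separate more readily than in the full comparison, so these counts describe no remaining difference. Negative values under the full comparison and each of 16 other settings (other filters, scalings, models and left-out libraries) were found for 38 genes, and 19 of the 46 were negative there and also without WT3 and TG1. The shares of all genes tested that were negative throughout were not counted. Several of the 16 settings could not change a sign. The filters, protein-coding genes alone, limma without a trend and the replicate block leave the fold change of a gene as it was.

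**Figure D2:**
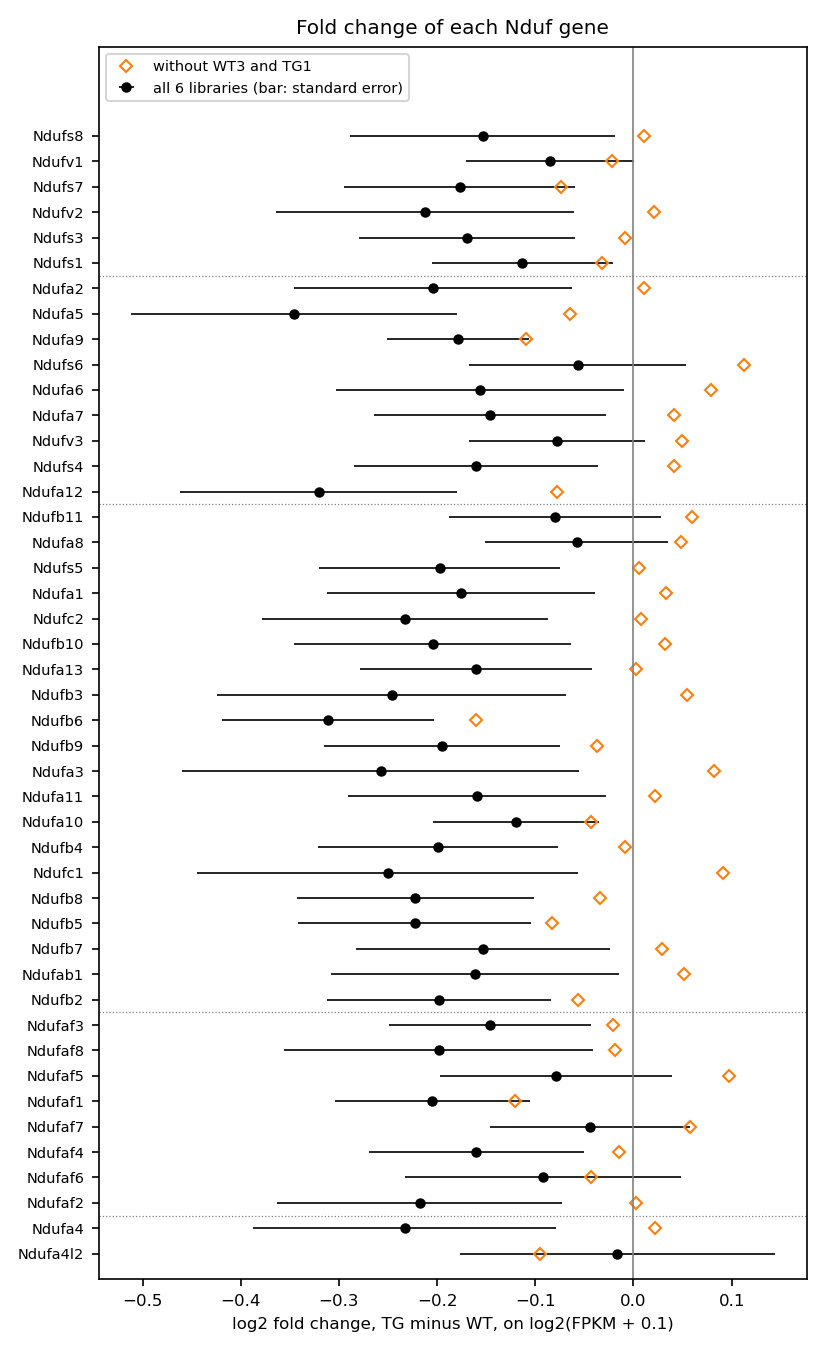
Log2 fold change (TG minus WT) of 45 of the Nduf genes with all 6 libraries (filled circles, bars give the standard error) and without WT3 and TG1 (open diamonds), by role from core subunits at the top to Ndufa4 at the bottom. All 45 filled circles lie below 0, and the diamonds lie on both sides of 0, 20 of them below.

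Core subunits bind the flavin and the iron-sulfur clusters of the matrix arm and form the quinone site. All 7 had a negative log2 fold change (median -0.15), from -0.21 in Ndufv2 to -0.09 in Ndufv1, and none passed an unadjusted p of 0.05 by limma. Ndufs8, which carries clusters on the way to quinone, measured 62.5, 61.7 and 87.1 FPKM in WT mice and 62.3, 64.2 and 60.9 FPKM in TG mice. WT3 alone stood above the other 5 libraries, and the log2 fold change was -0.15 (standard error 0.135, limma, unadjusted p = 0.290). Ndufv1, the subunit that binds flavin and NADH, had 58.3, 60.4 and 70.4 in WT mice and 60.8, 59.4 and 57.5 in TG mice. Ndufs1, the largest subunit and the least abundant core gene per exon length, had 16.1, 16.4 and 19.7 in WT mice and 16.3, 16.3 and 15.5 in TG mice. For these 3 genes the groups overlapped through WT1 and WT2, and the 3 TG values lay close together. Over the 7 core genes the coefficient of variation had a median of 15.1% among WT mice and of 3.26% among TG mice.

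Ndufs7, which holds the last cluster before quinone, had 55.2, 54.8 and 72.9 in WT mice and 55.9, 52.2 and 52.3 in TG mice, and only WT3 was apart. TG1 was the lowest library in 2 of the 7 core genes, Ndufs3 of the quinone module (33.5, with 36.0 to 47.0 in WT mice) and Ndufv2, which holds a cluster near the flavin (44.9, with 48.5 to 72.0 in WT mice). The median deviation of the core genes was 0.24 in WT3 and -0.11, -0.14 and -0.16 in TG1 to TG3, next to -0.11 and -0.14 in WT1 and WT2. In the median the core genes were not lower in TG1 than in TG2 and TG3, although Ndufs3 and Ndufv2 were, and the difference between roles was not tested.

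Accessory subunits of the matrix arm surround the core and stabilise it. All 9 had a negative log2 fold change, with a median of -0.16, and TG1 was the lowest library in 9 of 9. Ndufa9 (ENSMUSG00000000399, GRCm38 chr6:126821721-126849136), which sits where both arms meet and binds a nucleotide, had an FPKM of 42.3, 45.6 and 48.3 in WT mice and 38.7, 41.4 and 40.0 in TG mice. The groups did not overlap, with means of 45.4 ± 2.97 and 40.0 ± 1.34 (SD, n = 3 each). Its log2 fold change was -0.18 (standard error 0.0722, limma, unadjusted p = 0.0412, adjusted p = 0.786). Without WT3 and TG1 it was -0.11, and the unadjusted p was above 0.05 when any library other than WT1 was left out (0.0516 to 0.0936) and, among other settings, in limma without a trend (0.0982), voom (0.0536) and the length correction (0.0669).

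Ndufa2, a thioredoxin-like subunit and the most abundant of this arm, had 116, 100.3 and 141 in WT mice and 90.5, 103 and 115 in TG mice. Its groups overlapped, since WT2 lay below TG2 and TG3. Ndufa5, a subunit of the quinone module, had 81.0, 69.1 and 101 in WT mice and 53.7, 71.1 and 71.9 in TG mice, with a fold change of -0.35 on the log2 scale (standard error 0.166, limma, unadjusted p = 0.0740). Here TG1 stood far below the rest, WT3 far above, and TG2 and TG3 lay between WT2 and WT1. Ndufa12 was the least abundant gene of this arm, with 15.1, 15.1 and 19.2 in WT mice and 10.9, 14.0 and 14.5 in TG mice. Its groups did not overlap, the log2 fold change was -0.32 (standard error 0.141, limma, unadjusted p = 0.0555), and without WT3 and TG1 it was -0.08. Reads of Ndufa12 can be shared with the processed pseudogene Gm15920, which holds 17.7% of its 50-base stretches and had 364 to 617 reads per library, so its level is uncertain. The remaining 5 were Ndufs4, Ndufs6, Ndufa6, Ndufa7 and Ndufv3. Their log2 fold changes were between -0.16 (Ndufs4, whose loss causes Leigh-like disease in mice) and -0.06 (the zinc-binding Ndufs6), and their groups overlapped.

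Accessory subunits of the membrane arm formed the largest group, and all 20 had a negative log2 fold change (median -0.20, from -0.31 in Ndufb6 to -0.06 in Ndufa8). TG1 was the lowest library in 16 of the 20. Ndufb6 (ENSMUSG00000071014, GRCm38 chr4:40270591-40279421), a subunit of the distal part of the arm, had an FPKM of 62.3, 57.2 and 65.4 in WT mice and 42.8, 55.3 and 51.6 in TG mice. All TG values lay below all WT values, with WT2 and TG2 close together. The means were 61.6 ± 4.14 and 49.9 ± 6.43 (SD, n = 3 each), and the fold change was -0.31 on the log2 scale (standard error 0.108, limma, unadjusted p = 0.0227, adjusted p = 0.786). Without WT3 and TG1 the log2 fold change was -0.16, the most negative of the 46 genes in that comparison. A stretch of 257 bases of Ndufb6 overlaps Smim27 on the opposite strand, and since the strand used in counting was not stated these reads cannot be assigned, but Smim27 itself had 8 to 28 reads per library. The unadjusted p of Ndufb6 was 0.0715 without WT1, 0.0750 without WT3, 0.0521 without TG1 and 0.0562 in limma without a trend.

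The 3 most abundant genes of the arm were Ndufb11, Ndufa8 and Ndufs5. Ndufb11, an X-linked subunit, had 95.7, 82.8 and 107 in WT mice and 83.3, 95.3 and 90.3 in TG mice. Ndufa8, a subunit facing the intermembrane space, had 91.2, 84.0 and 104 in WT mice and 86.2, 93.5 and 87.6 in TG mice. In both genes the lowest library was WT2, not a TG library, and the groups overlapped. Ndufs5, which also faces the intermembrane space, had 81.1, 77.6 and 98.2 in WT mice and 64.6, 78.7 and 80.5 in TG mice, with TG1 below and TG2 and TG3 between WT2 and WT1. It shares 21.7% of its 50-base stretches with the pseudogene BC002163, which had 22 to 48 reads. Ndufb2 had the lowest FPKM of the arm, which is low per annotated exon length and gives no rank in abundance. It measured 3.75, 3.53 and 4.15 in WT mice and 2.94, 3.46 and 3.53 in TG mice, and TG3 equalled WT2 at this precision.

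Of the other members of this arm, Ndufb8 also had groups that did not overlap, with 19.5, 19.4 and 21.9 in WT mice and 14.4, 19.1 and 18.9 in TG mice. The separation from TG2 and TG3 was slight, and the log2 fold change of -0.22 (limma, unadjusted p = 0.107) became -0.03 without WT3 and TG1. Ndufa3, a small membrane subunit, varied most among TG libraries, with 35.0, 47.7 and 59.5, compared with 51.8, 48.8 and 67.1 in WT mice. Ndufc1 had 23.6, 21.6 and 34.7 in WT mice and 18.1, 23.3 and 24.7 in TG mice, so WT3 was far above the rest. Ndufa10, a subunit with a kinase-like fold, had 37.3, 35.1 and 42.8 in WT mice and 35.5, 34.9 and 35.3 in TG mice. Here TG1 was the highest of the TG libraries, so a low TG1 did not hold for every accessory subunit. Ndufab1, the mitochondrial acyl carrier protein, which also serves fatty acid synthesis, had 3.80, 4.26 and 4.97 in WT mice and 3.28, 3.91 and 4.45 in TG mice.

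**Figure D3:**
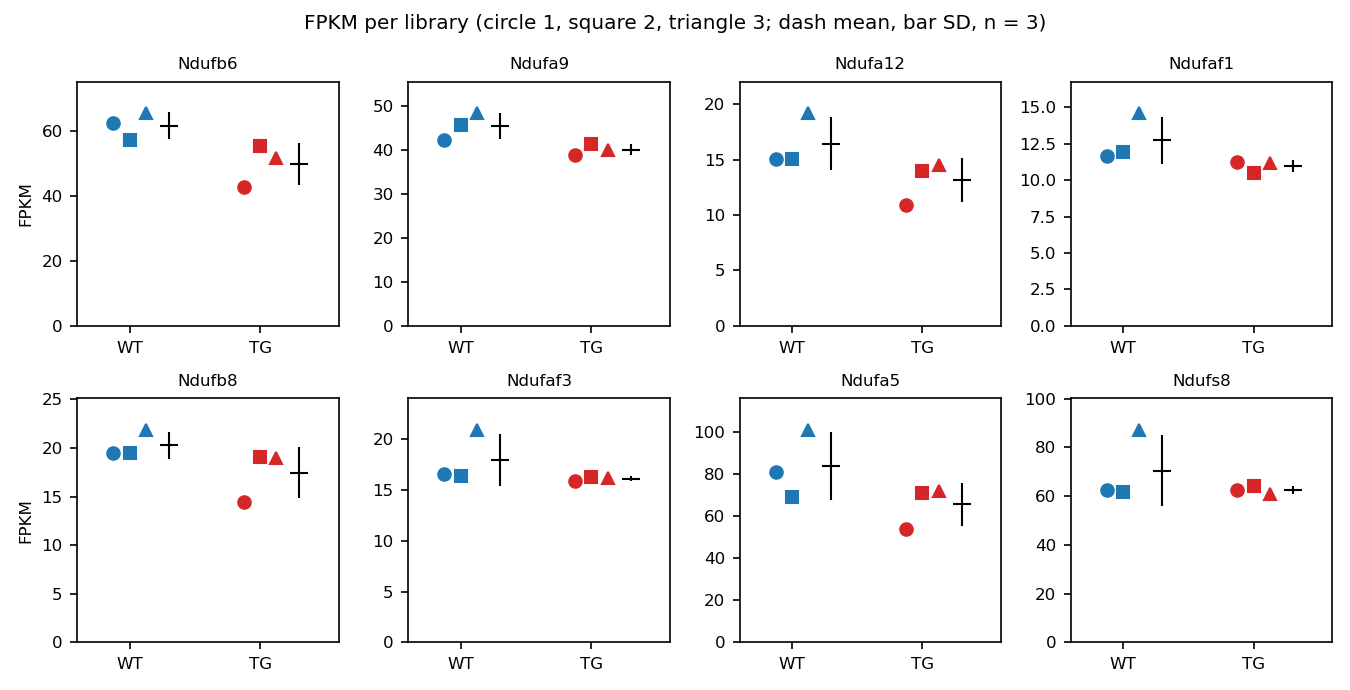
FPKM of 8 Nduf genes in each library (circles, squares and triangles are replicates 1, 2 and 3, the dash and bar beside them are the mean and SD, n = 3 per group, axes start at 0). The first 6 panels are the genes whose TG values all lie below their WT values, and Ndufa5 and Ndufs8 are genes whose groups overlap.

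Assembly factors are needed while the complex is built. All 8 had a negative log2 fold change (median -0.15, from -0.22 in Ndufaf2 to -0.04 in Ndufaf7), and none passed an unadjusted p of 0.05 by limma. Ndufaf3, which acts with Ndufaf4 on the quinone module, was the most abundant, with an FPKM of 16.6, 16.3 and 20.9 in WT mice and 15.8, 16.3 and 16.2 in TG mice. Its groups did not overlap, but WT2 and TG2 differed only by 16.34 and 16.29. Ndufaf8 and Ndufaf5, partners in modifying Ndufs7, followed. Ndufaf8 had 17.0, 12.03 and 17.7 in WT mice and 11.97, 14.8 and 13.4 in TG mice, and Ndufaf5 had 11.4, 12.6 and 15.1 in WT mice and 11.2, 12.4 and 13.2 in TG mice. The groups of both overlapped.

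Ndufaf2, the paralog that holds the place of Ndufa12 until late in assembly, had the lowest FPKM of the assembly factors. It measured 3.71, 3.55 and 4.65 in WT mice and 2.91, 3.48 and 3.79 in TG mice. This is low per annotated exon length, since Ndufaf2 was given 2978 bases where its coding transcripts have 556 to 678. Ndufaf6 had fewer reads per library (89 to 138, compared with 137 to 259 for Ndufaf2). The exons of Ndufaf2 overlap B230220B15Rik on the opposite strand over 64.1% of its stretches, and B230220B15Rik had 0 reads in every library. Ndufaf1, which builds the membrane arm together with Ecsit and Acad9, had 11.7, 11.96 and 14.6 in WT mice and 11.2, 10.5 and 11.2 in TG mice. Here the groups did not overlap, the lowest library was TG2, the log2 fold change was -0.20 (standard error 0.0991, limma, unadjusted p = 0.0760), and without WT3 and TG1 it was -0.12. Ndufa12, Ndufb8, Ndufaf1 and Ndufaf3 were picked out for their separated groups after their values were seen. Ndufaf4, Ndufaf6 and the methyltransferase Ndufaf7 had log2 fold changes of -0.16, -0.09 and -0.04.

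Ndufa4 had an FPKM of 127, 111 and 148 in WT mice and 88.6, 120.4 and 120.2 in TG mice, and TG2 and TG3 lay between WT2 and WT1. Its log2 fold change was -0.23 (standard error 0.155, limma, unadjusted p = 0.174). Ndufa4l2, the paralog known to be induced in hypoxia, had 3.41, 2.43 and 2.29 in WT mice and 2.54, 2.75 and 2.63 in TG mice, and a log2 fold change of -0.02. It was the only member in which WT3 was the lowest library, and the pair thus did not share a profile.

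Complex I genes without an Nduf name came next. Of 15 other assembly factors, 14 were in the table, 12 had a negative log2 fold change, 0 passed an unadjusted p of 0.05 in either direction by limma, and the median was -0.08. Their medians were 0.09 in WT3 and -0.11 in TG1, smaller than those of the Nduf assembly factors (0.20 and -0.19). Dmac1, a factor of the distal membrane arm, was the most abundant and had the smallest p, with 28.0, 28.4 and 35.6 in WT mice and 26.4, 26.0 and 28.0 in TG mice. WT3 was again the highest library.

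The 7 mitochondrially encoded subunits form the proton-pumping core of the membrane arm. All 7 had a negative log2 fold change (median -0.23), 0 passed an unadjusted p of 0.05 by limma, and TG1 was the lowest library in 6. mt-Nd1, the most abundant, measured an FPKM of 5244, 4882 and 5750 in WT mice and 3608, 4928 and 4599 in TG mice. mt-Nd2 measured 2589, 2757 and 3088 in WT mice and 1973, 2628 and 2377 in TG mice. TG1 was below every WT library in both, while TG2 lay inside the WT range. mt-Nd3 measured 106, 101 and 164 in WT mice and 55.2, 119 and 92.4 in TG mice, with a fold change of -0.51 on the log2 scale (standard error 0.299, limma, unadjusted p = 0.129). For mt-Nd4 the groups did not overlap, with 2364, 2339 and 2370 in WT mice and 1839, 2325 and 2218 in TG mice.

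The remaining mt-Nd genes differed among the WT libraries. The FPKM of mt-Nd4l reached 73.2, 47.5 and 32.0 in WT mice and 19.6, 61.0 and 58.0 in TG mice, and mt-Nd5 measured 1952, 2035 and 1704 in WT mice and 1718, 1897 and 1904 in TG mice. WT3 was the lowest WT library in both. mt-Nd6, which is read from the other strand, measured 1666, 1661 and 2260 in WT mice and 1494, 1727 and 1509 in TG mice. The medians of the 7 genes were 0.12 in WT3 and -0.51, -0.02 and -0.20 in the TG libraries, and TG1 deviated more, and WT3 less, than in the nuclear genes.

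A high WT3 and a low TG1 were also present outside complex I. Of 57 names listed for nuclear subunits of complexes II to V, 41 were in the table as protein-coding genes and 40 were tested. All 40 had a negative log2 fold change, the median was -0.17 and 0 passed an unadjusted p of 0.05. WT3 was the highest library in 38 of them and TG1 the lowest in 28. Cox8a, the most abundant of them, had 700.4, 626 and 784 in WT mice and 570, 697 and 701 in TG mice. Among 74 cytosolic ribosomal proteins, 72 were negative, the median was -0.20, 1 was lower at an unadjusted p under 0.05 (Rps13), WT3 was the highest in 70 and TG1 the lowest in 62. The medians of the ribosomal proteins were 0.22 in WT3 and -0.41 in TG1, close to those of the membrane arm subunits (0.21 and -0.39). No test of a difference between complex I and these lists was run.

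**Figure D4:**
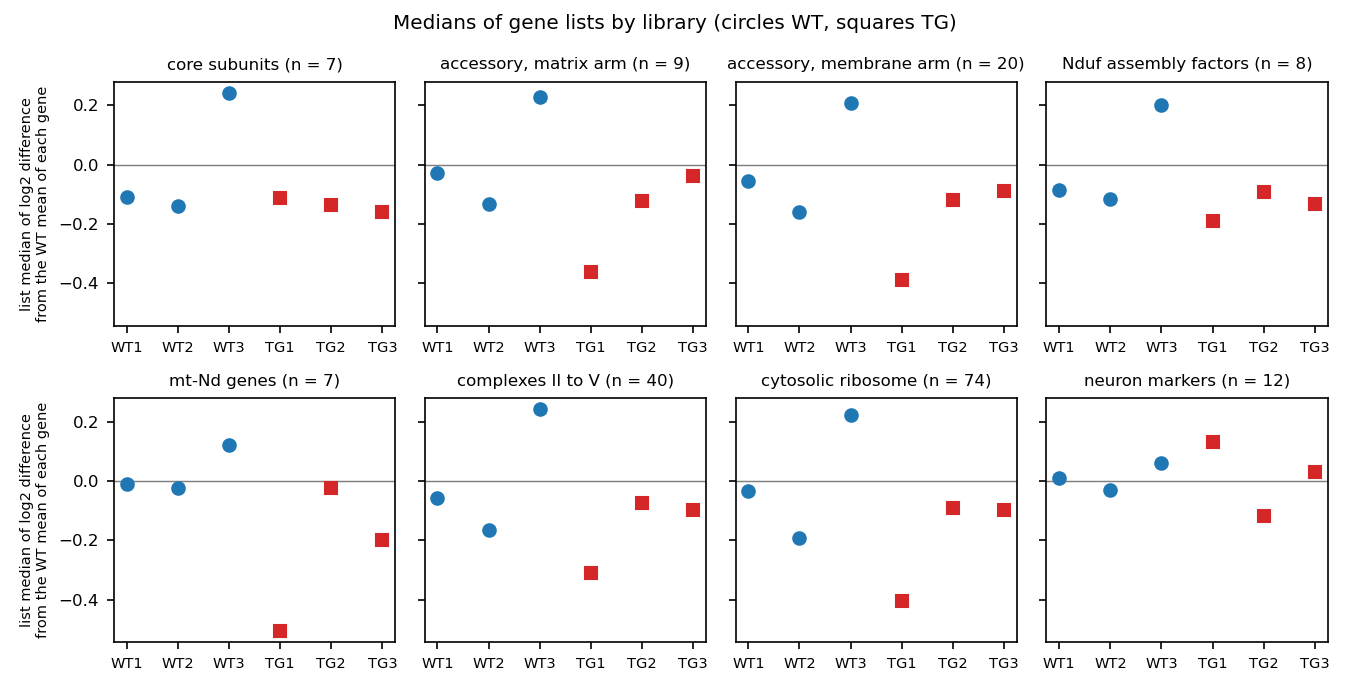
Median over each list of the log2 difference of a gene from its WT mean, by library (circles WT, squares TG), for 4 roles of Nduf genes and 4 other lists. WT3 is the highest point in every panel except the neuron markers, TG1 is the lowest except among the core subunits and the neuron markers, and the medians of the neuron markers are between -0.12 and 0.13.

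Markers of neurons did not move with the Nduf genes. Their median log2 fold change was 0.01 over 12 genes, and their medians were 0.06 in WT3 and 0.13 in TG1. The neuron markers had a median gene length of 5847 bases, compared with 1635 for the Nduf genes. Other protein-coding genes of 2 kb and longer whose mean FPKM reached 10 had medians of 0.03 in WT3 and 0.04 in TG1. The part of length in this contrast was not tested. The 10 oligodendrocyte markers had a median of -0.30 (2 lower and 0 higher at an unadjusted p under 0.05 by limma), with -0.18 in WT3 and -0.66 in TG1, so they shared a low TG1 with the Nduf genes but not a high WT3. The 10 choroid plexus markers (6 higher, 0 lower) had medians of 2.86 in TG1 and 4.40 in TG2, and TG2, which held more of these transcripts than TG1, had a median of -0.12 over the Nduf genes. Medians were 0.01 for 9 astrocyte markers, 0.11 for 9 microglia markers (2 higher), -0.08 for 10 markers of hippocampal excitatory neurons, -0.41 for 5 ependyma markers (3 lower) and -0.13 for 5 blood markers. The part of tissue composition in the Nduf values was not tested.

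Among 12 regulators of mitochondrial biogenesis, the median log2 fold change was 0.07 and 5 were negative. Esrra, a nuclear receptor that drives genes of oxidative phosphorylation, had an FPKM of 21.2, 20.5 and 21.2 in WT mice and 25.2, 22.7 and 24.4 in TG mice. Its groups did not overlap, with a log2 fold change of 0.20 in the direction opposite to the Nduf genes (standard error 0.0663, limma, unadjusted p = 0.0192, adjusted p = 0.786). Without WT3 and TG1 its log2 fold change was 0.17. Esrra was the only one of the 12 past an unadjusted p of 0.05, where 3.13% of all genes tested were higher. All TG libraries lay above all WT libraries in 4 of the 12, compared with 6.35% of all genes tested. They lay below in 0, compared with 5.71%.

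Gene length moved with the deviations, and most in WT2, WT3 and TG1 among the other protein-coding genes that reached this mean FPKM of 10. Their median in TG1 was -0.30 for 147 genes under 1 kb, -0.16 for 629 genes of 1 to 2 kb and 0.04 for 3846 longer genes. In the same order it was 0.20, 0.17 and 0.03 in WT3 and -0.17, -0.12 and -0.01 in WT2. It was -0.04, -0.05 and -0.01 in WT1, -0.11, -0.10 and -0.03 in TG2 and -0.08, -0.09 and -0.02 in TG3. The Nduf genes of the same classes had medians of -0.38 (11 genes), -0.28 (18 genes) and -0.25 (17 genes) in TG1, 0.20, 0.24 and 0.19 in WT3 and -0.17, -0.16 and -0.11 in WT2. The 17 Nduf genes with at least 2 kb of exons thus had medians further from 0 in these libraries than the other genes of that length. The Nduf genes were taken at any level and the other genes only from a mean FPKM of 10, and the difference was not tested. For several of these Nduf genes the exon length far exceeds the coding transcript, as given above for Ndufb2, Ndufb7 and Ndufab1. Across the 46 genes, which share libraries, Spearman's rho of exon length was -0.27, 0.44 and -0.21 with the deviations of the WT libraries in order, 0.26, 0.14 and -0.12 with those of the TG libraries, and 0.21 with the log2 fold change. Each library was corrected for gene length with a curve over exon length. The curve was fitted to all 20952 genes tested, not to genes of this level. After this correction the median log2 fold change was -0.12 and 42 of 46 genes were negative, compared with 10842 of the 20952 genes. Ndufb11 moved from -0.08 to 0.003, but the longer Ndufs1 moved from -0.11 to -0.17 and Ndufb2 from -0.20 to -0.23. Since abundant genes could follow another curve, the correction cannot settle the part of length in the result, which was otherwise not tested.

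**Figure D5:**
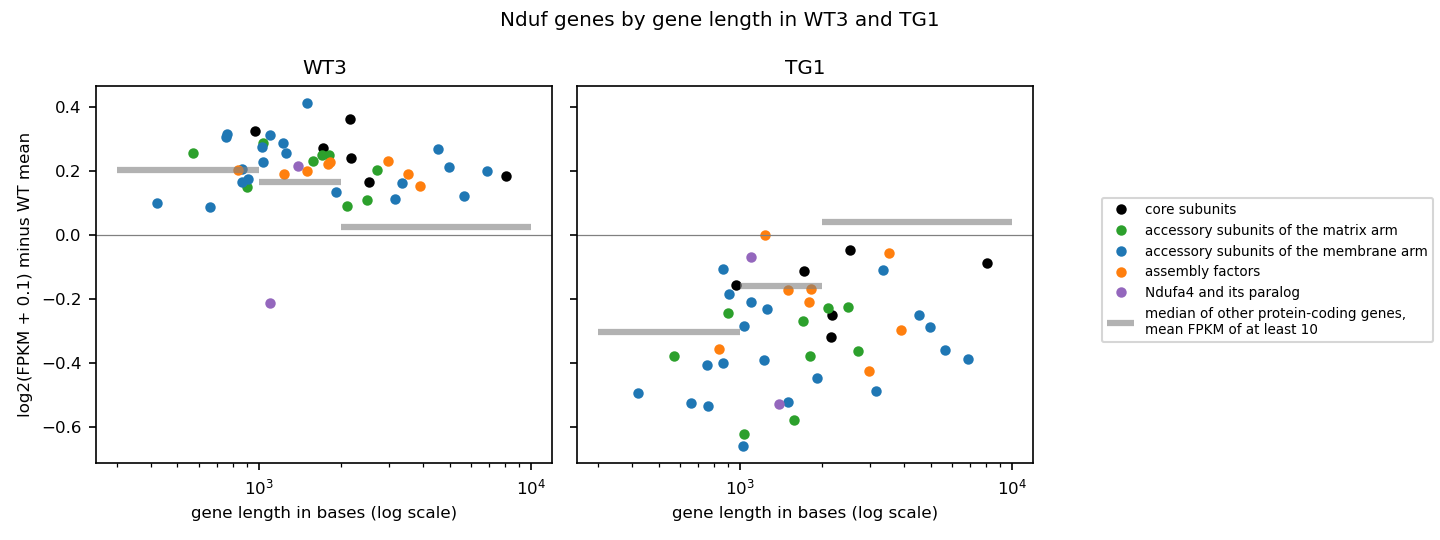
Log2 difference from the WT mean in WT3 (left) and TG1 (right) for 45 of the Nduf genes, by exon length in bases on a log axis and coloured by role, with grey lines for the medians of other protein-coding genes whose mean FPKM reached 10 (under 1 kb, 1 to 2 kb, 2 kb and longer). The grey medians go from 0.20 to 0.03 in WT3 and from -0.30 to 0.04 in TG1, and the 17 Nduf genes of 2 kb and longer have medians of 0.19 and -0.25 in the whole family.

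Shared sequence limits single values. Of the 46 genes, 24 had no 50-base stretch in common with another gene, 9 had at least 5% and 19 had exons that overlap another gene. Besides Ndufa12 and Ndufs5, the 9 included Ndufb4 with its pseudogene Ndufb4c (18.3%, 16 to 40 reads) and Ndufs3 with Gm12251 (16.0%, 63 to 112 reads). At least 5% of stretches were antisense to another gene in 6 members, with the largest shares in Ndufaf2 and Ndufb6.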

How the data were processed

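Hippocampal RNA of 3 WT and 3 TG mice was analysed. The authors counted reads per gene with HTSeq v0.6.0 and deposited FPKM, computed from the count and the gene length. The aligner was not given in the sources used here, and the submitters' processing notes name GRCm38 (mm10). The extraction and library kits differ between the study's methods (Trizol, NEBNext) and the labels (RNeasy, SMARTer). FPKM times length gave whole reads for 100% of values (tolerance 0.05 reads).

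Genes whose mean FPKM reached 0.1 (20952 of 54532) were tested on log2(FPKM + 0.1) with limma 3.58.1 (lmFit, eBayes with trend) in R 4.3.3, with Benjamini-Hochberg adjustment over all genes tested and a threshold of 0.05. The test was checked on simulated libraries, in which genes varied independently and no library stood out over many genes. That check does not cover a shift shared by many genes in a library. Summaries were made in Python 3.11.15 (pandas 2.3.3). Shared stretches were measured on GENCODE M21 transcripts, where 42 members had the same start and end. TMM factors were computed on the FPKM by an own trimmed mean of M-values (0.99656 to 1.0027).

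The members and lists were chosen with earlier results of these data known. Values in every library were due for members with an unadjusted p under 0.05, the 3 most abundant and the least abundant of each role, Ndufa4, Ndufa4l2 and the mt-Nd genes, and for other lists the gene with the smallest p or the highest level. The values of 1 member are not reported here, although it is in the counts and medians. Other members were named after their values were seen.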

Additional observations from a re-analysis of the deposited data

How the results depend on the processing

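Each result was recomputed with other pseudocounts, filters, TMM factors, protein-coding genes alone, limma without a trend, voom on recovered reads, a correction for gene length, a replicate block and each library left out, and, chosen after seeing the data, without WT3 and TG1 together. The replicate numbers did not pair the libraries (correlations of same-numbered libraries of 0.0109, 0.0516 and 0.0334), and with the replicate block 2 Nduf genes were lower at an unadjusted p under 0.05, Ndufb6 (limma, p = 0.0367) and Ndufa12 (0.0196) but not Ndufa9 (0.0620), with a median of -0.17. The number lower was 0 without the trend, 1 with the length correction, 0 to 5 with 1 library left out (5 without WT2, 0 without WT3 or TG1, 1 without another) and 0 without WT3 and TG1. Of the genes with all TG below all WT libraries there were 6 to 22 with 1 library left out (22 without WT2, 10 without TG3), and of those above there were 0 to 1 (1 without WT1) and 3 without WT3 and TG1. Groups separate more readily with fewer libraries, and the shares of all genes tested were not counted in these settings. The median was -0.25 to -0.06 with 1 library left out and 0.00415 without WT3 and TG1, where 21 genes were negative and the medians were 0.0411 for the matrix arm, 0.0145 for the membrane arm and -0.0164 for the assembly factors. Of the named genes, Ndufa2 (0.0110), Ndufa4 (0.0220), Ndufa8 (0.0480), Ndufaf2 (0.00236), Ndufaf5 (0.0971), Ndufb11 (0.0598), Ndufs5 (0.00585) and Ndufs8 (0.0107) were positive there, and Ndufa4l2 (0.0648), Ndufa8 (0.0262) and Ndufb11 (0.00322) were positive with the length correction. With 1 library left out, Ndufa4l2 ranged from -0.12 to 0.15, Ndufa8 from -0.13 to 0.0245, Ndufaf5 from -0.17 to 0.0325, Ndufb11 from -0.18 to 0.00799 and Ndufs8 from -0.24 to 0.00914. Of 323 values of 19 named genes, 285 kept their direction and side of the unadjusted threshold, 17 turned positive, 15 lost the call and 6 gained it, and the cause was not tested. The filters, protein-coding genes alone, limma without a trend and the replicate block could change only the p-value and not the direction. No Nduf gene had an adjusted p under 0.05 in any of these settings. With 3 mice per group, intervals and limits from reads cover counting only.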
